A study of Mus musculus with 9 samples.

Results

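Ligands of the vascular endothelial growth factor (VEGF), angiopoietin and angiopoietin-like families were compared among primary mammary tumours of the mouse lines 67NR, 66cl4 and 4T1. The members were listed by name as Vegfa, Vegfb, Vegfc, Pgf, Angpt1, Angptl2 and Angptl4, and each was read from the probe sets that the array annotation gives to that gene alone. Of the 7 listed genes, 6 were measured, by 11 probe sets, out of 18194 genes on the array. No probe set was assigned to Angptl2 alone in the annotation used here, and Angptl2 was not analysed here. Where a gene had more than 1 probe set, the one with the highest mean over the 9 arrays gave its main value.

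Tumours were grown in female BALB/c mice aged 7 to 9 weeks, 3 mice per line, each given 1000000 viable cells of its line in a mammary gland. The labels give the injected cells the suffix CMVLUC for every line, and no uninjected or parental control is among the samples. Primary tumours were taken on day 15 and the tumour part of each section was isolated by laser capture before RNA extraction. The lines descend from 1 spontaneous mammary tumour of a mouse of this strain. As background, 67NR cells are known to stay at the primary site, 66cl4 cells to seed the lung, and 4T1 cells the lung and further organs. Each line stands for itself, since its 3 tumours grew from the same cultured cells, and the p-values measure the spread between mice. Of the epithelial marker genes, 9 of 9 were above background on all 3 arrays in 4T1, 4 of 9 in 66cl4 and 3 of 9 in 67NR tumours, and Cdh1, Esrp1 and Cldn7 were not above background on any 67NR or 66cl4 array. Captured tumour tissue holds vessels and immune cells beside tumour cells, and in such bulk RNA fewer cells of a type and less RNA per cell cannot be told apart.

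VEGF ligands are secreted dimers that bind receptor tyrosine kinases on endothelial cells. VEGF-A acts through the receptors encoded by Flt1 and Kdr and is the main driver of vessel sprouting, while VEGF-B and the placental growth factor encoded by Pgf bind the Flt1 product alone. VEGF-C, once cleaved, binds the products of Flt4 and Kdr and drives the growth of lymphatic vessels. Angiopoietin 1 activates the receptor encoded by Tek and keeps vessels quiet and sealed. Angptl4 encodes a secreted inhibitor of lipoprotein lipase that is induced by low oxygen and by the lipid-sensing PPAR receptors.

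Values are log2 signals per probe set as deposited by the authors, with no detection call. Array medians were 5.51 to 5.58. The brightest of 27 control probe sets for bacterial transcripts, at 4.83 to 5.08 over the arrays, was taken as the background of each array. A difference is given on the log2 scale as the first line minus the second, with its standard error (SE) in the fit. Calls were made in limma at an adjusted p under 0.05, by the method of Benjamini and Hochberg over all 13410 genes tested. All 6 measured members were among those tested, Vegfc through its 66cl4 and 4T1 arrays. With 3 mice per line an exact permutation test of 2 lines cannot give a p below 0.1, so the tests rest on the model fitted across all genes.

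The promoter windows of the VEGF ligands are shown side by side because their genes are compared next. RefSeq windows on GRCm38.p6 run from 250 bases before the annotated start of a gene to 50 after it, and 5 of the 7 listed genes had one. The 250 upstream bases are printed 5′ to 3′ in the direction of the gene. Capitals mark ACGTG or GCGTG, on either strand, the core letters of the element bound by hypoxia-inducible factors.
Vegfa (chr17:46032378-46032627, minus strand): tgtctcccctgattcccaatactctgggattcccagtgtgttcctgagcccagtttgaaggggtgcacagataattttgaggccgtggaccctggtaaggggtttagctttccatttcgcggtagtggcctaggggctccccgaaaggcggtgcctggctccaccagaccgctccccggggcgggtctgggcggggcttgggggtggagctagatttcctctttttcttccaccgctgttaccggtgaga
Vegfb (chr19:6987652-6987901, minus strand): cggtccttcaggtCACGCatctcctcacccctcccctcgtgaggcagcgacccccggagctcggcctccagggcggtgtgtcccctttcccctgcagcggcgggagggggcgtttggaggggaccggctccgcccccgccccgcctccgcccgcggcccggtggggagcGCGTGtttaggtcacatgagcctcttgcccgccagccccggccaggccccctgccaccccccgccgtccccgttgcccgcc
Vegfc (chr8:54077282-54077531, plus strand): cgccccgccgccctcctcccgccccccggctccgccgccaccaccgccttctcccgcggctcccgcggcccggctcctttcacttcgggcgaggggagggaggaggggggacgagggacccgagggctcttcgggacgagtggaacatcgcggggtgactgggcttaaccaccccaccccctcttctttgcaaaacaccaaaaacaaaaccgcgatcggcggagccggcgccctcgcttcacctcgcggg
Pgf (chr12:85177314-85177563, minus strand): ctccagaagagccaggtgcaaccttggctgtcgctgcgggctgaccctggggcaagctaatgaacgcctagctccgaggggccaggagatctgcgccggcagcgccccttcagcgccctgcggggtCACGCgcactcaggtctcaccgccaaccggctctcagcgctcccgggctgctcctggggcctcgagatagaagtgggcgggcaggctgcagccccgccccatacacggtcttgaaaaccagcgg
In these windows the letters were found 2 times for Vegfb, 1 time for Pgf and 0 times for Vegfa and Vegfc. A further Vegfa window, at an internal start, held 2 matches, a further Pgf window held 0, and so did the window of Angptl2. ACGTG stood in 19.6% and GCGTG in 32.4% of all 32851 promoter windows of this length, and either of them in 43.8%. The Vegfc window was rich in the dinucleotide CG, with 35 copies against a median of 7 over all windows. The Vegfb window had 31 copies, the upstream Pgf window 23 and the printed Vegfa window 16. A match is a description of letters and not a bound site, and letters outside the window were not searched.

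Vegfc separated 67NR tumours from both other lines, 66cl4 tumours had less Vegfa and Angptl4 than 67NR tumours, and Vegfb differed by small amounts. Among the 3 lines, 5 of 6 measured members passed limma's moderated F-test, against 56.6% of all genes. Between 4T1 and 67NR tumours 2 of 6 were called, both higher in 4T1, against 39.9% of all genes. Between 66cl4 and 67NR tumours 4 of 6 were called, 2 higher and 2 lower in 66cl4, against 36.1% of all genes. Between 4T1 and 66cl4 tumours 2 of 6 were called, both higher in 4T1, against 41.3% of all genes. A count of 2 of 6 in either comparison with 4T1 does not exceed the share of all genes called there. The values of the 3 tumours did not overlap for 3 of 6 members between 4T1 and 67NR (49.7% of all genes), 5 of 6 between 66cl4 and 67NR (52.5%) and 2 of 6 between 4T1 and 66cl4 (50.9%). The median log2 difference of the members was 0.40, -0.67 and 1.04 in the same order of comparisons, beside -0.03, 0.01 and -0.03 over all genes.

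**Figure D1:**
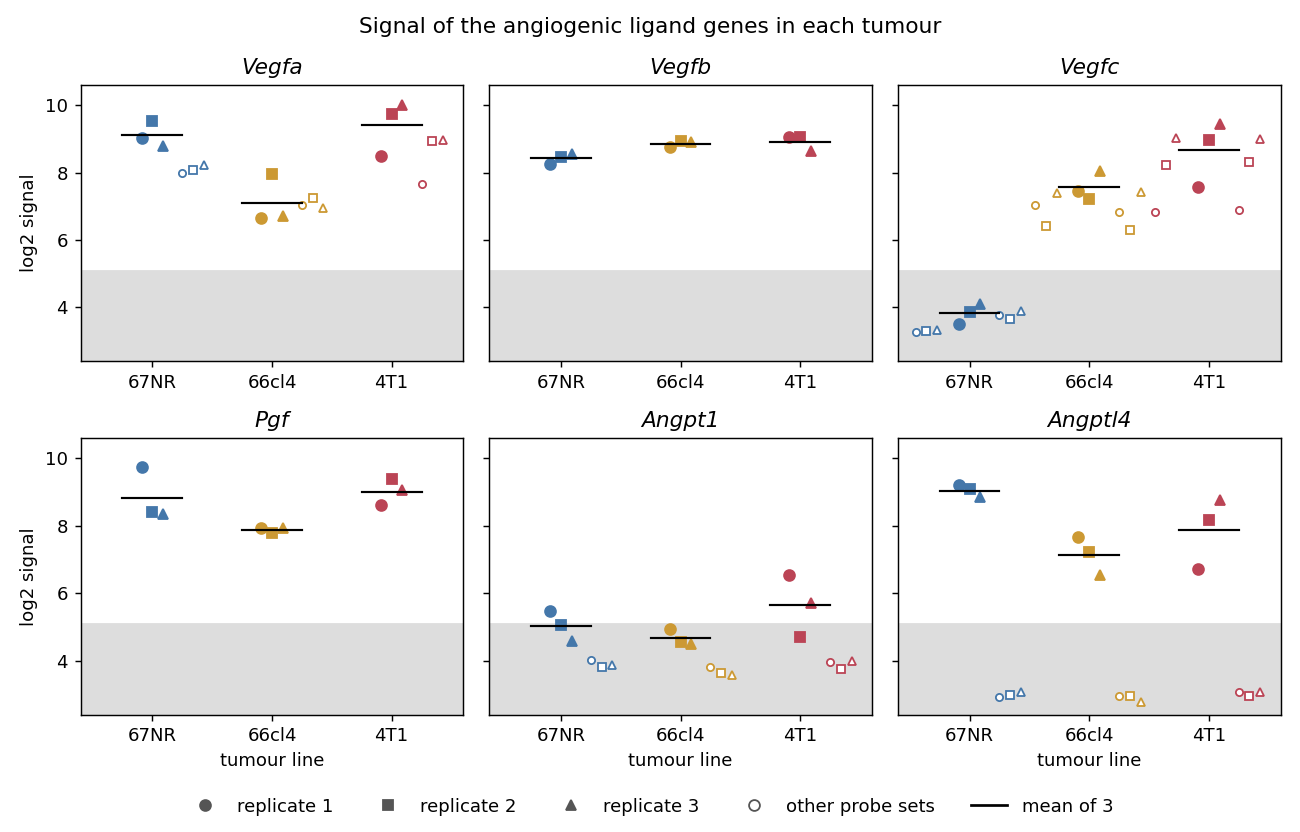
Each panel plots the log2 signal of 1 ligand gene (vertical axis) in the 3 tumours of each line (horizontal axis), with filled symbols for the main probe set, open symbols for its other probe sets, a bar for the mean of 3 and grey for signals up to 5.08, the highest background of any array. Vegfc lies inside the grey area in 67NR only, Vegfa is lowest in 66cl4, and the main Angpt1 probe set lies inside or near the grey area except for 2 4T1 tumours at 5.70 and 6.54.

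Vegfa, the central ligand of the family, was lower in 66cl4 tumours than in either other line. Its log2 signal was 9.02, 9.52 and 8.79 in the 67NR tumours, 6.66, 7.95 and 6.70 in the 66cl4 tumours, and 8.50, 9.75 and 10.00 in the 4T1 tumours. The highest 66cl4 value lay below every value of the other lines, while the 67NR and 4T1 values overlapped. Vegfa was 4.02-fold lower in 66cl4 than in 67NR (log2 difference -2.01 ± 0.44, SE, n = 3 per line, limma adjusted p = 0.00562). It was higher in 4T1 than in 66cl4 by 2.31 ± 0.44 (adjusted p = 0.00218). Between 4T1 and 67NR the difference was 0.30, with a 95% interval from -0.67 to 1.28 (adjusted p = 0.625), which leaves room for a difference of either sign.

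The dimmer Vegfa probe set gave the same order with smaller differences. It read 7.98, 8.09 and 8.22 in 67NR, 7.05, 7.25 and 6.94 in 66cl4, and 7.66, 8.94 and 8.96 in 4T1 tumours. Here too no 66cl4 value reached those of the other lines. In the fit of all 28223 probe sets that passed the filter, it was lower in 66cl4 than in 67NR by -1.02 ± 0.30 (adjusted p = 0.0294) and higher in 4T1 than in 66cl4 by 1.44 ± 0.30 (adjusted p = 0.00451). Over all probe sets 27.8% and 33.2% were called in these comparisons. The 66cl4 tumours spanned 1.30 on the brighter probe set and 0.31 on the dimmer one, with replicate 2 highest on both.

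Vegfc, the lymphatic growth factor, was not above background in any 67NR tumour. Its log2 signal was 3.52, 3.87 and 4.12 in 67NR, 7.46, 7.23 and 8.04 in 66cl4, and 7.57, 8.97 and 9.45 in 4T1 tumours. The lowest 66cl4 or 4T1 value stood 3.12 above the highest 67NR value. Vegfc was at least 13.2-fold higher in 4T1 and at least 6.22-fold higher in 66cl4 than in 67NR tumours. These bounds set the brighter line's mean against the background of the 67NR arrays, which comes from other probe sets and is approximate. The adjusted p was 1.81e-05 for 4T1 and 0.000126 for 66cl4, for a gene that passed the filter on low values only through those lines. Both differences were also called with no filter.

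All 3 Vegfc probe sets gave this pattern, and all 3 were called in both comparisons with 67NR, where 32.8% and 27.8% of all probe sets were called. Each passed the filter on low values only through its 66cl4 and 4T1 arrays, so these calls carry the limit given above. The main one carries the suffix by which the array maker marks probes that may read other sequences, and the others do not. The other probe sets had 67NR values of 3.65 to 3.89 and 3.28 to 3.33, 66cl4 means of 6.86 and 6.96 and 4T1 means of 8.07 and 8.03. By these probe sets Vegfc was at least 8.74-fold and 8.49-fold higher in 4T1, and at least 3.79-fold and 4.04-fold higher in 66cl4.

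Between 4T1 and 66cl4 tumours Vegfc did not pass the test (log2 difference 1.09 ± 0.42, 95% interval 0.15 to 2.02, adjusted p = 0.0625), and the values overlapped through 4T1 replicate 1. Without that array the difference was 1.63 (adjusted p = 0.00132). The other Vegfc probe sets differed by 1.21 and 1.07 (adjusted p = 0.0699 and 0.103 in the fit of probe sets).

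Pgf, encoding placental growth factor, was lowest in 66cl4 tumours. It read 9.75, 8.41 and 8.35 in 67NR, 7.92, 7.77 and 7.93 in 66cl4, and 8.62, 9.38 and 9.05 in 4T1 tumours. The 66cl4 values spanned 0.15 and lay below all others, while the 67NR values spanned 1.40, with replicate 1 highest. Pgf was higher in 4T1 than in 66cl4 by 1.14 ± 0.34 (adjusted p = 0.0224). The call ended under several settings. Without 66cl4 replicate 1, 2 or 3 the adjusted p was 0.0512, 0.0633 and 0.0502, and without 4T1 replicate 2 or 3 it was 0.0764 and 0.0556, with differences of 0.96 to 1.17. It also ended with the number in the array file name as covariate (1.09, adjusted p = 0.0642) and with the hybridization controls as covariate (0.87, adjusted p = 0.165).

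Between 66cl4 and 67NR tumours Pgf differed by -0.96 ± 0.34 and lay at the threshold (adjusted p = 0.0502), although its values did not overlap. With quantile normalization or with scaling to the 75th percentile it was called (adjusted p = 0.042 and 0.0401). It was also called without 67NR replicate 2 or 3 (0.044 and 0.0342) or without 4T1 replicate 1 (0.0455). Between 4T1 and 67NR tumours the difference was 0.18 (adjusted p = 0.717). Without 67NR replicate 1 it was 0.64 (adjusted p = 0.0361), and it was -0.03 without 67NR replicate 2, -0.07 without 67NR replicate 3 and -0.0018 without 4T1 replicate 2.

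Vegfb, which binds the Flt1 product, differed least of the called members. It read 8.27, 8.48 and 8.54 in 67NR, 8.75, 8.93 and 8.91 in 66cl4, and 9.06, 9.05 and 8.63 in 4T1 tumours. Every 66cl4 and 4T1 value lay above the 67NR values, by a gap of 0.09 for 4T1 and 0.21 for 66cl4. Vegfb was 1.40-fold higher in 4T1 (log2 difference 0.49 ± 0.14, adjusted p = 0.019) and 1.35-fold higher in 66cl4 (0.43 ± 0.14, adjusted p = 0.0351) than in 67NR. Between 4T1 and 66cl4 the difference was 0.05, with a 95% interval from -0.26 to 0.36.

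Neither Vegfb call held without every array. The call for 4T1 ended without 67NR replicate 1 (adjusted p = 0.0715), without 4T1 replicate 1 (0.0612) and without 4T1 replicate 2 (0.0679). That for 66cl4 ended without 67NR replicate 1 (0.12), 67NR replicate 2 (0.0707), 66cl4 replicate 2 (0.102) or 66cl4 replicate 3 (0.0935). The size of the difference stayed between 0.40 and 0.63 for 4T1 and between 0.35 and 0.49 for 66cl4 when arrays were left out.

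Angptl4, the lipoprotein lipase inhibitor, was highest in 67NR tumours. It read 9.22, 9.08 and 8.84 in 67NR, 7.67, 7.23 and 6.54 in 66cl4, and 6.72, 8.17 and 8.75 in 4T1 tumours. The 67NR values lay above all others, and the 66cl4 and 4T1 values overlapped. Angptl4 was 3.74-fold lower in 66cl4 than in 67NR (log2 difference -1.90 ± 0.46, adjusted p = 0.00946), and it was called at every array left out. In 4T1 the difference from 67NR was -1.17 ± 0.46 and did not pass the test (adjusted p = 0.0684), the gap between the lines being 0.09.

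The Angptl4 result for 4T1 turned on single arrays. Without 4T1 replicate 3, the highest of that line, the difference from 67NR was -1.60 (adjusted p = 0.0171). Without 4T1 replicate 1, the lowest, 4T1 was higher than 66cl4 by 1.32 (adjusted p = 0.00825) in place of 0.74 (0.233). The other Angptl4 probe set was at 2.78 to 3.08 on all 9 arrays and not above background on any, so it gave no second reading. The main one is of the type that the array maker marks as reading more than 1 transcript.

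Angpt1, the ligand of the receptor encoded by Tek, was near background except in 2 4T1 tumours. It passed neither a pairwise test nor the F-test (adjusted p = 0.13). Its main probe set read 5.46, 5.07 and 4.59 in 67NR, 4.94, 4.57 and 4.49 in 66cl4, and 6.54, 4.71 and 5.70 in 4T1 tumours. It was above background on 2 of 3 67NR, 1 of 3 66cl4 and 2 of 3 4T1 arrays. The values of the lines overlapped in each comparison. The difference of 4T1 from 66cl4 was 0.99 ± 0.40 (95% interval 0.10 to 1.87, adjusted p = 0.0726) and from 67NR 0.61 (adjusted p = 0.257). Without 4T1 replicate 2 these were 1.46 (0.00556) and 1.08 (0.0223). The other Angpt1 probe set read 3.57 to 4.03 and was not above background on any array.

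**Figure D2:**
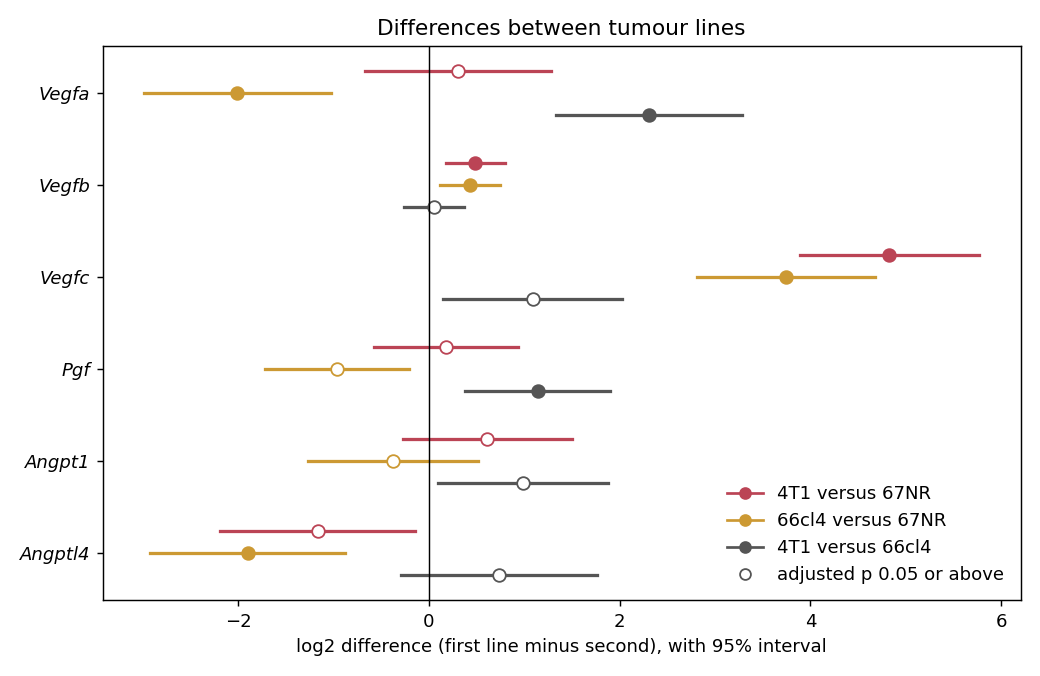
For each gene (vertical axis) the plot gives the log2 difference between lines (horizontal axis, first line minus second) with its 95% interval, for 3 comparisons over 3 mice per line. Filled points have an adjusted p under 0.05. The Vegfc differences from 67NR, 4.83 and 3.74 as measured with 67NR at background, stand farthest from 0, and the Vegfb intervals are the narrowest.

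Several members varied more between tumours of a line than most genes did. In 4T1 tumours the standard deviation (SD) over the 3 mice was 1.05 for Angptl4, 0.97 for Vegfc, 0.92 for Angpt1 and 0.80 for Vegfa, where the median over all genes tested was 0.18. At least 98.4% of genes had a smaller SD in that line than each of these 4 members. In 66cl4 tumours Vegfa had an SD of 0.73 and Angptl4 of 0.57 against a median of 0.13, larger than in 98.9% and 97.7% of genes. In 67NR tumours Pgf had an SD of 0.79, larger than in 99.5% of genes. Vegfb had SDs of 0.10 to 0.25 over the lines, and Pgf in 66cl4 tumours one of 0.09.

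4T1 replicate 1 was the lowest array of its line for Vegfa, Vegfc, Pgf and Angptl4 and the highest for Angpt1 and, at 9.06 against 9.05 in the next, for Vegfb. Both Vegfa and all 3 Vegfc probe sets placed it lowest. The mean log2 signal of 18 hypoxia-induced genes was 9.77 in that tumour against 10.16 and 10.08 in the other 4T1 tumours. Its mean over 17 vascular endothelial markers was 7.41 against 7.64 and 7.57, and the hybridization controls averaged 10.30 against 10.72 and 10.37. The part of these in the member values was not tested.

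**Figure D3:**
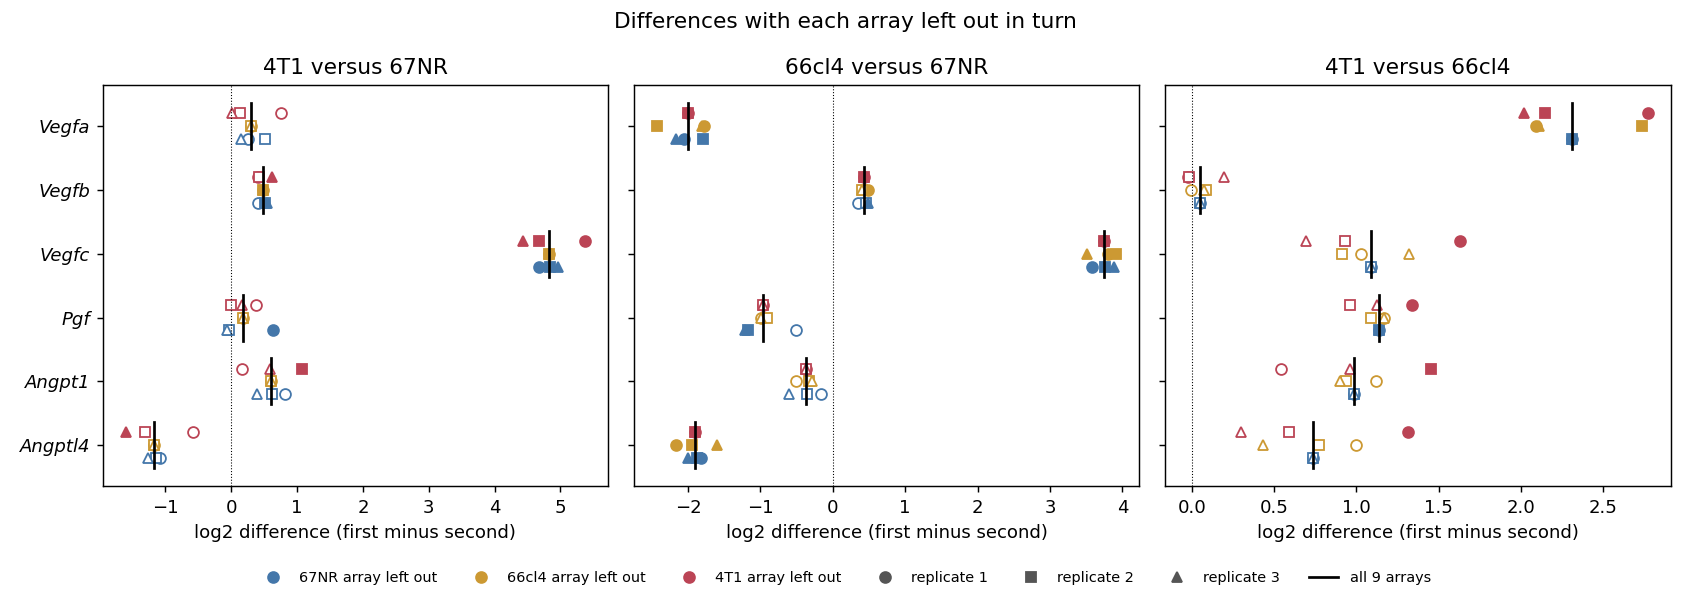
The plot gives each member's log2 difference between lines (horizontal axis, first minus second) when 1 of the 9 arrays is left out, coloured by the line of that array and shaped by its replicate number. Filled symbols have an adjusted p under 0.05 and the black bars give the value over all 9 arrays. The Vegfc and Angptl4 differences between 4T1 and 66cl4 are called only without 4T1 replicate 1, at 1.63 and 1.32.

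Genes whose profile over the 9 arrays came closest to each called member were found by the root mean square (RMS) difference of log2 values after each gene was centred on its own mean. Closest to Vegfa were Serpinh1, a collagen chaperone (RMS 0.35), Upp1, a uridine phosphorylase (0.42), and the chemokine gene Cx3cl1 (0.42). Closest to Vegfc were Ak4, an adenylate kinase of mitochondria (0.58), Thbs2, encoding the vessel growth inhibitor thrombospondin 2 (0.58), and Sfmbt2 (0.62). The Ak4 mean was 4.24 in the 67NR line, 7.58 in the 66cl4 line and 8.33 in the 4T1 line. Closest to Pgf were Pmaip1, Cd8a and Tmem140 (0.20 to 0.24), and closest to Angptl4 were Gem, Rhoj and Sema7a (0.37 to 0.41). Around Vegfb, whose profile is nearly flat, stood Asnsd1, Nfatc3 and Hmgn1 (0.06 to 0.07). These values describe likeness over 9 arrays and carry no test.

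The receptors of these ligands differed between the lines as well, and not all in the same direction. Of 7 VEGF and Tie receptors and co-receptors, 5 were lower and 0 higher in 4T1 than in 67NR tumours, with a median log2 difference of -0.99. In 66cl4 against 67NR tumours 5 were lower and 1 higher, with a median of -1.40. In 4T1 against 66cl4 tumours 4 were higher and 2 lower, with a median of 0.73. Over all genes 20.5% and 16.0% were called lower in 4T1 and 66cl4 against 67NR, and 20.0% were called higher in 66cl4. Between 4T1 and 66cl4, 17.9% of all genes were called higher in 4T1 and 23.4% lower. Without 67NR replicate 1 the count called in 66cl4 against 67NR was 4 in place of 6.

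Kdr, the main signalling receptor of VEGF-A, read 8.58, 8.52 and 8.54 in 67NR, 6.80, 6.84 and 6.84 in 66cl4, and 7.27, 7.69 and 7.70 in 4T1 tumours. No values of any pair of lines overlapped, and Kdr was lower than in 67NR by -1.72 ± 0.12 in 66cl4 (adjusted p = 9.09e-06) and by -0.99 ± 0.12 in 4T1 (0.000189). Flt4, the receptor of VEGF-C, read 7.60, 7.10 and 7.30 in 67NR, 5.83, 5.77 and 5.61 in 66cl4, and 6.81, 6.56 and 7.07 in 4T1 tumours. It was lower in 66cl4 (-1.59 ± 0.16) and 4T1 (-0.52 ± 0.16) than in 67NR tumours, so Vegfc and Flt4 were called in opposite directions in these comparisons.

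Flt1, the receptor shared by VEGF-A, VEGF-B and placental growth factor, read 8.33, 7.79 and 7.75 in 67NR, 6.89, 6.13 and 6.65 in 66cl4, and 7.77, 8.92 and 9.38 in 4T1 tumours. It was lower in 66cl4 than in 67NR by -1.40 ± 0.37 (adjusted p = 0.0152) and higher in 4T1 than in 66cl4 by 2.14 ± 0.37 (0.00136), the directions of Vegfa in the same comparisons. Between 4T1 and 67NR it did not pass the test (0.73 ± 0.37, adjusted p = 0.149). As for Vegfa, 4T1 replicate 1 was the lowest array of its line.

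The angiopoietin receptor gene Tek and its relative Tie1 were lower in both 66cl4 (-1.38 ± 0.12 and -2.27 ± 0.21) and 4T1 tumours (-1.60 ± 0.12 and -1.26 ± 0.21) than in 67NR. The co-receptor gene Nrp1 read 11.08, 10.95 and 11.11 in 67NR, 11.00, 11.03 and 11.32 in 66cl4, and 10.35, 8.93 and 9.21 in 4T1 tumours. Nrp1 was thus lower in 4T1 than in 67NR by -1.55 ± 0.30 (adjusted p = 0.0026), while 66cl4 and 67NR overlapped. Nrp2, the co-receptor of VEGF-C, was higher in 66cl4 than in 67NR (0.59 ± 0.15, adjusted p = 0.0129) and than in 4T1 tumours, from which 4T1 differed by -0.45 ± 0.15 (0.0361).

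**Figure D4:**
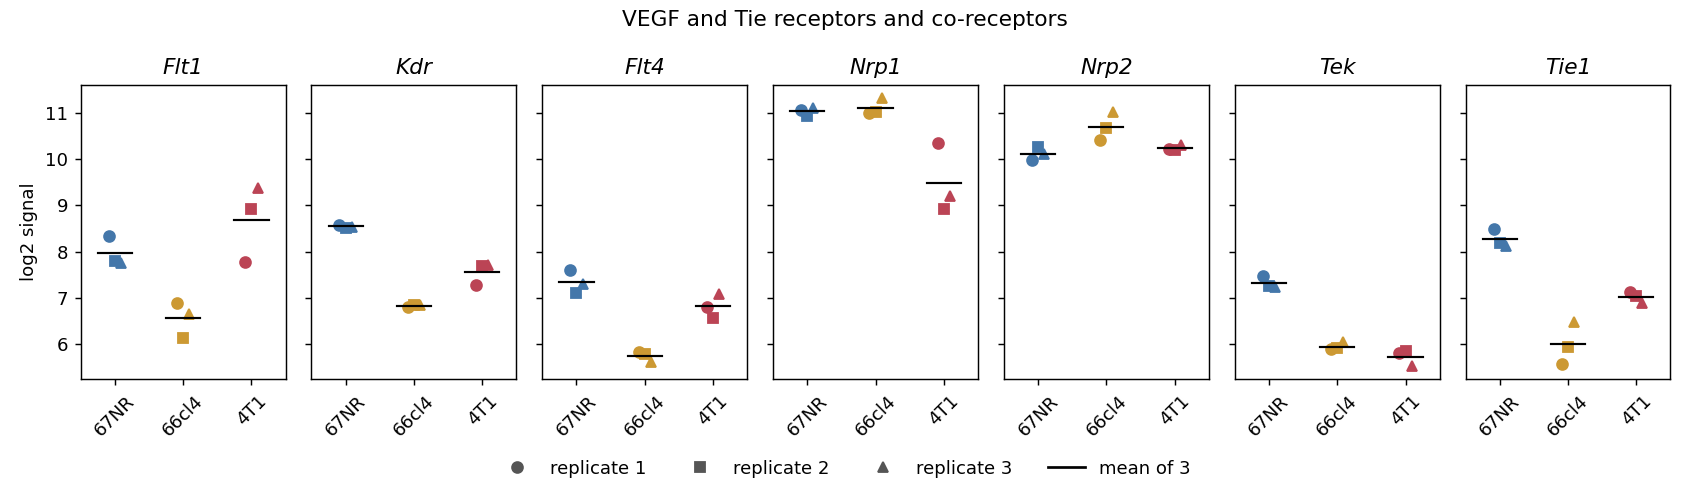
Log2 signal (vertical axis) of 7 receptor and co-receptor genes in the 3 tumours of each line (horizontal axis), with symbols by replicate and a bar for the mean of 3. Kdr, Flt4, Tek and Tie1 are highest in 67NR, Flt1 is lowest in 66cl4 with 4T1 values of 7.77 to 9.38, and Nrp1 is lowest in 4T1.

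Most markers of vessel cells were lower in both other lines than in 67NR, as were Kdr, Flt4, Tek and Tie1 among the receptors. Flt1, Nrp1 and Nrp2 were not called lower in both. For all marker lists, the shares of all genes called against 67NR were 20.0% higher and 16.0% lower in 66cl4, and 19.4% higher and 20.5% lower in 4T1. Of 17 vascular endothelial markers, 15 were lower and 1 higher in 66cl4 than in 67NR tumours, with a median of -1.94, and 14 were lower and 1 higher in 4T1, with a median of -1.54. Their mean log2 signal was 8.61 to 9.01 in 67NR, 7.03 to 7.26 in 66cl4 and 7.41 to 7.64 in 4T1 tumours, and no marker was below background on all arrays of a line. Cdh5, the cadherin of endothelial junctions, was lower by -2.26 ± 0.14 in 66cl4 and by -2.11 ± 0.14 in 4T1. Of 9 pericyte markers, 8 were lower in each of the 2 lines than in 67NR, with means of 9.27 to 9.35 in 67NR, 7.26 to 7.88 in 66cl4 and 7.28 to 7.73 in 4T1. Between 4T1 and 66cl4, 7 endothelial markers were higher and 1 lower in 4T1 (median 0.45), where 17.9% and 23.4% of all genes were. Of the pericyte markers 1 was higher and 1 lower in that comparison (median -0.02). The part of vessel cell content in the receptor and ligand values was not tested.

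Other cell types that can make these ligands differed too. Macrophage and monocyte markers were lower in 4T1 than in 67NR for 10 of 10 tested members, and in 66cl4 3 were higher and 0 lower. Their mean signal was 11.33 to 11.50 in 67NR, 11.43 to 12.00 in 66cl4 and 10.00 to 10.34 in 4T1 tumours. Mast cell markers were lower for 8 of 8 in both lines, with means of 10.01 to 10.59 in 67NR against 5.45 to 5.85 in 66cl4 and 4.93 to 5.54 in 4T1. The latter means lay near background. Of the 8, 6 were above background on all 3 66cl4 arrays and 4 on all 3 4T1 arrays, and Ms4a2 and Fcer1a were on none. Of 9 fibroblast markers, 4 were higher and 3 lower in 4T1, and 4 higher and 2 lower in 66cl4. Of 6 tested neutrophil markers 2 were higher in 4T1 than in 67NR, and the median difference of 66cl4 from 67NR was 0.12. Of the 9 epithelial markers 8 were higher in 4T1 and 1 in 66cl4 than in 67NR tumours. The part of these cells in the member values was not tested.

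Some defining markers of further cell types were at background on all or most arrays. Of 5 measured lymphatic endothelial markers, Prox1 and Mmrn1 were not above background on any array. Of the 3 tested, Pdpn was lower in both lines than in 67NR. Lyve1 was higher in 66cl4, with means of 12.43 against 4.88 in 67NR, where 1 of 3 arrays was above background. With Prox1 and Mmrn1 at background, the cells that carry Lyve1 were not identified. Of 7 measured adipocyte markers, Cidec and Lep were not above background on any array and Adipoq on none of 67NR and 4T1. In the 66cl4 tumours Adipoq read 6.99, 4.88 and 3.22, above background on 1 of 3 arrays. That tumour, replicate 1, also had the highest Angptl4 signal of its line, 7.67. The part of fat cells in that Angptl4 value was not tested. Of 4 adipocyte markers tested 2 were lower in 4T1 than in 67NR, and 1 was higher and 1 lower in 66cl4. Of 7 tested skeletal muscle markers 1 was lower in each line than in 67NR, namely Des, which the pericyte list also holds. In 66cl4 replicate 2 the mean of these markers was 6.51 against 5.59 and 5.82 in the other 66cl4 tumours, and Acta1, the actin of skeletal muscle, read 7.98 with the next tumour of the line at 6.33. The same tumour had the highest Vegfa signal of its line, and without it the Vegfa difference of 66cl4 from 67NR was -2.43, still called. The part of muscle in that array's Vegfa value was not tested.

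The other ligands of these families were called only as lower in the first line of each comparison. In 4T1 against 67NR tumours 4 of 5 tested were lower, in 66cl4 against 67NR 3 of 5, and in 4T1 against 66cl4 4 of 5, with medians of -1.02, -0.55 and -0.38, where 20.5%, 16.0% and 23.4% of all genes were called lower. The last count was unstable, at 2 with scaling to the 75th percentile and 1 to 3 with an array left out. Angpt2, which loosens vessels by opposing angiopoietin 1, was lower by -1.48 ± 0.21 in 66cl4 and by -1.01 ± 0.21 in 4T1 than in 67NR. Vegfd, the closest relative of Vegfc, read 6.25, 6.25 and 6.51 in 67NR, 6.66, 6.30 and 7.51 in 66cl4, and 4.45, 5.44 and 4.77 in 4T1 tumours. Vegfd was lower in 4T1 than in 67NR (-1.45 ± 0.31, adjusted p = 0.0046) and than in 66cl4 tumours (-1.94 ± 0.31, adjusted p = 0.000885), whereas Vegfc had its highest mean in 4T1. In 4T1 Vegfd was above background on 1 of 3 arrays. Angpt4 and Angptl7 were lower in 4T1 than in 67NR by -1.10 ± 0.11 and -1.02 ± 0.16, Angptl6 was lower in 4T1 than in 66cl4 by -0.29 ± 0.10, and Angptl1 was not above background on any array.

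Genes that cut or release the ligands went both ways. Of the 10 tested, 3 were higher and 2 lower in 4T1 than in 67NR (19.4% and 20.5% of all genes), 3 lower in 66cl4 than in 67NR (16.0%), and 4 higher and 1 lower in 4T1 than in 66cl4 (17.9% and 23.4%). Furin, a convertase that cleaves the VEGF-C precursor, read 8.78, 8.78 and 8.68 in 67NR, 8.08, 8.30 and 8.03 in 66cl4, and 9.27, 10.00 and 9.67 in 4T1 tumours. It was higher in 4T1 than in 67NR by 0.90 ± 0.17 and lower in 66cl4 by -0.61 ± 0.17. Pcsk5, a related convertase, was not above background in 67NR and at least 6.27-fold higher in 4T1. Ccbe1, a cofactor of VEGF-C cleavage, was lower in 66cl4 than in 67NR by -1.05 ± 0.16 and higher in 4T1 than in 66cl4 by 1.32 ± 0.16. Its protease partner Adamts3 was not above background on any array. Mmp9, a matrix protease that frees bound VEGF-A, was higher in 4T1 than in 67NR by 2.12 ± 0.50.

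Hypoxia-induced genes differed among themselves in their order over the lines. Of 18, 9 had their lowest mean in 67NR tumours and 8, like Vegfa, in 66cl4. The order of the Vegfa means, 66cl4, 67NR and 4T1 from low to high, was followed by 6. Such orders were not counted over all genes, so these counts describe the list alone. The mean log2 signal over the list was 8.62 to 9.11 in 67NR, 9.11 to 9.57 in 66cl4 and 9.77 to 10.16 in 4T1 tumours. Of 18 such genes, 13 were higher and 0 lower in 4T1 than in 67NR (median 0.90), where 19.4% of all genes were called higher. In 66cl4 against 67NR 7 were higher and 2 lower (median 0.14), where 20.0% were called higher and 16.0% lower. Car9, a carbonic anhydrase induced through hypoxia-inducible factor, read 5.97, 5.21 and 5.10 in 67NR, 10.21, 10.76 and 9.99 in 66cl4, and 9.98, 10.12 and 10.43 in 4T1 tumours. Pdk1, which restrains entry of pyruvate into mitochondria, was higher in 66cl4 by 1.76 ± 0.16 and in 4T1 by 1.67 ± 0.16. Vegfa and Angptl4, themselves known targets of low oxygen, were lower in 66cl4 tumours, as were Ddit4 (-2.05 ± 0.38) and Pfkfb3 (adjusted p = 0.0119). Between 4T1 and 66cl4 tumours 9 of 18 were higher in 4T1, where 17.9% of all genes were called higher. Bhlhe40 (2.33 ± 0.34) and Ndrg1 (1.71 ± 0.22) were among these 9.

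The oxygen-sensing genes themselves went both ways. Of 10, 4 were higher and 2 lower in 4T1 than in 67NR, where 19.4% and 20.5% of all genes were. In 66cl4 against 67NR 3 were higher and 2 lower (20.0% and 16.0% of all genes). In 4T1 against 66cl4 4 were higher and 3 lower (17.9% and 23.4%). Epas1, encoding the endothelial-rich factor HIF-2α, was lower by -1.75 ± 0.26 in 66cl4 and by -1.81 ± 0.26 in 4T1 than in 67NR. Egln3, a prolyl hydroxylase induced by low oxygen, was higher in 4T1 than in 67NR by 3.08 ± 0.17 and differed by -0.50 in 66cl4 (adjusted p = 0.044). Hif1an, which limits the activity of hypoxia-inducible factors, was higher by 1.51 ± 0.12 in 66cl4 and by 0.64 ± 0.12 in 4T1.

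Genes listed as angiogenesis inhibitors went both ways. Thbs2 read 5.31, 4.96 and 5.53 in 67NR, 8.89, 8.76 and 8.09 in 66cl4, and 9.31, 11.07 and 10.25 in 4T1 tumours. Like Vegfc it was lowest in 67NR, and it was higher by 3.32 ± 0.39 in 66cl4 and by 4.94 ± 0.39 in 4T1. Thbs1, encoding thrombospondin 1, was higher by 2.79 ± 0.26 in 66cl4 and by 1.37 ± 0.26 in 4T1 than in 67NR. Timp3, which also blocks the binding of VEGF-A to the Kdr product, was lower in 66cl4 than in 67NR by -2.60 ± 0.54. Of 8 tested genes on this list, 3 were higher and 2 lower in 4T1 than in 67NR (19.4% and 20.5% of all genes). In 66cl4 2 were higher and 2 lower (20.0% and 16.0%). The 2 lower in 4T1 were Sparc and Vash2, and Vash2 is not an established inhibitor of vessel growth.

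**Figure D5:**
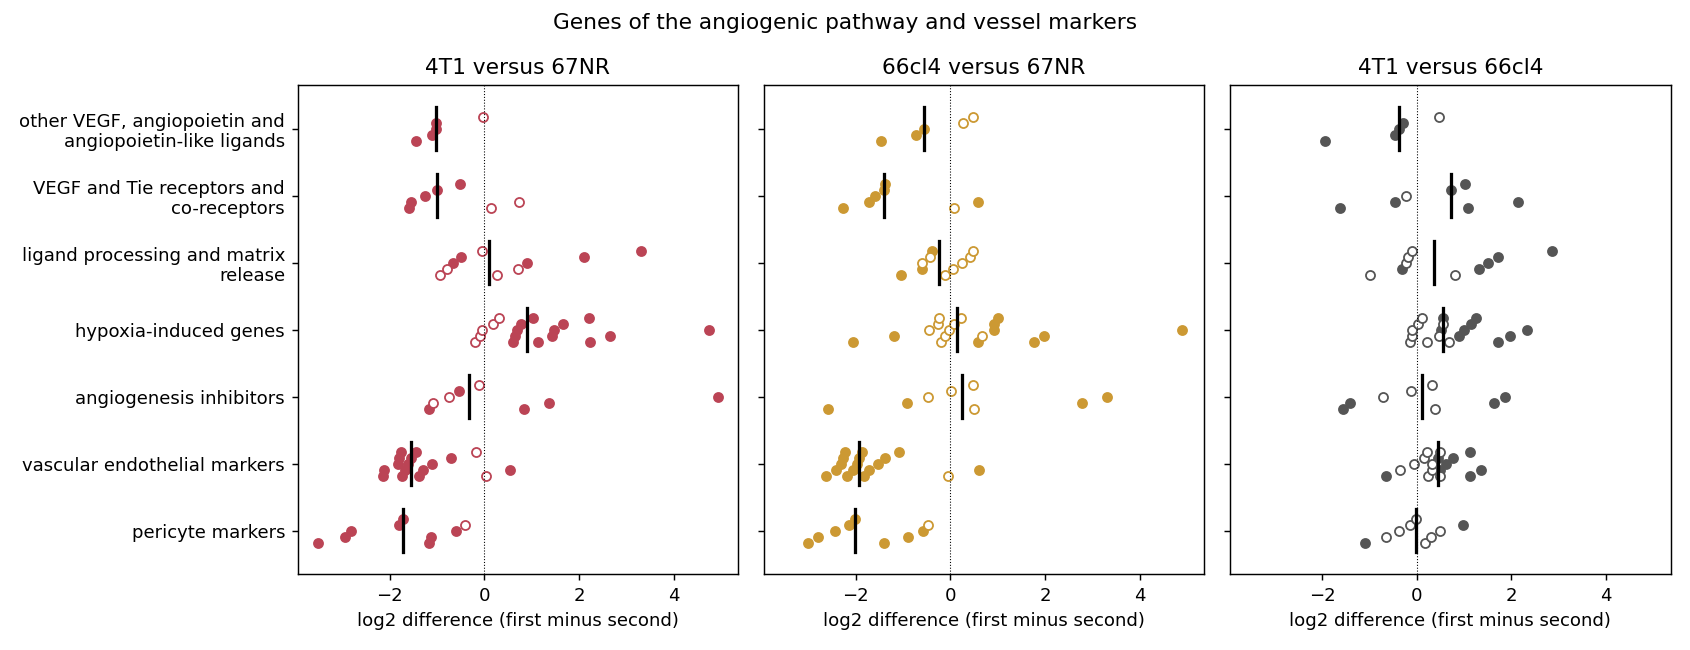
Each point is 1 gene of a list (vertical axis) with its log2 difference between lines (horizontal axis, first minus second). Filled points have an adjusted p under 0.05 and black bars give the list median. Vascular endothelial markers have medians of -1.54 and -1.94 against 67NR, and hypoxia-induced genes 0.90 and 0.14.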

How the data were processed

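The values deposited by the authors are log2 signals of 45101 probe sets on 9 single-colour Affymetrix arrays, 1 for each of 3 mice per line. The log2 scale was read from the values (2.42 to 14.80), with summarization and normalization not given in the sources used here. All values were used without further scaling, since the 75th percentiles of the arrays differed by 0.15. Symbols came from the platform annotation, updated through Entrez identifiers against RefSeq of GRCm38.p6, which 34754 of 34958 probe sets with 1 gene matched, while 932 had several genes and 9211 were unnamed here. Pigf, another gene whose name matches an alias of Pgf, was left out. Genes entered the test when 3 or more arrays had them over that array's 40th percentile.

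Group means were fitted with limma 3.58.1 in R 4.3.3 to all 9 arrays without covariates, and the script was tested on simulated data. The number of arrays, which have no sequencing depth, limits precision. The members and lists were chosen with earlier results of these data known. Named are all members, all VEGF and Tie receptors, up to 4 genes of each pathway list with the smallest p per comparison, and for each member called by the F-test the 3 closest profiles. Cdh5, Adamts3, Angptl1, Pfkfb3, Lyve1, Pdpn, Acta1, Des and the markers at background were named after their values were seen. Alternatives covered scaling, probe sets, filters, covariates, the replicate block, pairwise fits, the variance model and left-out arrays.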

Additional observations from a re-analysis of the deposited data

How the results depend on the processing

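Of 336 member differences recomputed over 19 alternative settings, 295 kept direction and call, 15 lost and 17 gained a call, and 9 changed sign, none of which was a called difference. Vegfa between 66cl4 and each other line, Vegfc in both comparisons with 67NR, and Angptl4 between 66cl4 and 67NR were called under every setting run. Vegfc was at background in 67NR and passed the filter on low values only through its other arrays, so its calls carry that limit. Angpt1 could not be tested with the mean of probe sets or the filter at the 50th percentile. Signs changed for Angpt1 between 4T1 and 67NR with the number in the array file name as covariate (-0.07) or the hybridization controls (-0.74), and for Pgf in that comparison with the controls (-0.30). With arrays left out in turn, that Pgf difference ranged from -0.0664 to 0.64 and the Vegfb difference between 4T1 and 66cl4 from -0.0216 to 0.19. Counts of called members then ranged from 1 to 3 for 4T1 against 67NR, from 1 to 4 for 4T1 against 66cl4 and from 3 to 5 in the F-test, which had 3 without 67NR replicate 1.

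With the file number as covariate, calls between 4T1 and 67NR were 2661 genes in place of 5348 and 3 receptors in place of 5, 1 member was called between 4T1 and 66cl4, and the Angptl4 difference between 4T1 and 67NR was -2.44 (adjusted p = 0.0344). With the hybridization controls 2151 genes were called between 4T1 and 67NR. In that comparison macrophage markers called were 3 under either covariate in place of 10, and hypoxia-induced genes 8 and 6 in place of 13. File numbers of 67NR arrays all lie above those of the other lines, so the number and that line cannot be fully separated. The hybridization controls averaged 10.87 to 11.47 on 67NR and 10.30 to 10.72 on 4T1 arrays, so they and these lines cannot be fully separated either. With the replicate number as a block, 4 members were called between 4T1 and 66cl4 in place of 2, and Vegfb between 66cl4 and 67NR was not (adjusted p = 0.0573). Deviations of same-numbered arrays correlated from -0.11 to 0.16 and those of differently numbered arrays from -0.18 to 0.16. These correlations gave no sign of pairing by number, but they cannot exclude that arrays of 1 number were handled together. The causes of these changes were not tested. Signals near background, as for Angpt1, limit what these arrays can show.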

Other observations

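Receptors and lipid-metabolism genes that bear on the angiopoietin-like proteins were also measured. Of 6 integrin and related receptor genes, 1 was higher and 1 lower in 4T1 than in 67NR (19.4% and 20.5% of all genes). In 66cl4 against 67NR 2 were lower (16.0%), and in 4T1 against 66cl4 3 were higher and 1 lower (17.9% and 23.4%). The medians were -0.09, -0.41 and 0.42 in the same order. Itgb3, a subunit of the vascular integrin that Angptl4 protein can bind, had mean log2 signals of 7.01 (67NR), 5.97 (66cl4) and 7.40 (4T1). It was lower in 66cl4 than in 67NR by -1.04 ± 0.26 (limma adjusted p = 0.0118) and higher in 4T1 than in 66cl4 by 1.43 ± 0.26 (adjusted p = 0.00182). Pirb, an inhibitory receptor of myeloid cells that binds the Angptl2 product, was lower in 4T1 than in 67NR by -1.71 ± 0.36.

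Of 7 tested genes of PPAR receptors and their targets, 1 was higher and 4 lower in 4T1 than in 67NR (19.4% and 20.5% of all genes). In 66cl4 against 67NR 3 were lower (16.0%), and in 4T1 against 66cl4 3 were higher and 2 lower (17.9% and 23.4%). Pparg, the lipid-sensing receptor of fat cells and macrophages, was lower by -1.78 ± 0.25 in 66cl4 and by -2.01 ± 0.25 in 4T1 than in 67NR. Its values of 4.96 to 5.32 in these 2 lines lay near background, with 2 of 3 4T1 arrays above it, so the sizes are approximate. The fatty acid transporter gene Cd36 was lower in 4T1 than in 67NR by -4.06 ± 0.31, with 2 of 3 4T1 arrays above background. Ppard, a further receptor that induces Angptl4, was higher in 4T1 than in 66cl4 by 0.90 ± 0.19 and did not pass the test against 67NR (adjusted p = 0.0972 in 4T1 and 0.0824 in 66cl4). The probe sets of Ppara and Pdk4 were not above background on any array. The part of these receptors in the Angptl4 signal was not tested.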
